A study of Rattus norvegicus with 16 samples.

Results

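Gene expression in the hypothalamus of rats that had inhaled (R)-(-)-linalool was compared with that of rats that had not, with restraint as a second factor. All 16 arrays of the series entered the comparison: the 8 whose labels name linalool and the 8 whose labels do not. The rats were male Wistar rats aged 7 to 8 weeks, 1 rat to an array, in 4 groups of 4. Control rats met neither restraint nor odour, restraint rats were restrained for 2 h, linalool rats inhaled (R)-(-)-linalool for 2 h, and the last group had both for 2 h. The linalool side therefore holds 4 unrestrained and 4 restrained rats, and so does the other side. The labels give no vehicle odour for the rats without linalool and no dose of linalool.

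A scented monoterpene alcohol of lavender and other plant oils, linalool exists as mirror-image forms, of which (R)-(-)-linalool is one. When inhaled it can act through the olfactory system, and it can also enter the blood through the lungs. Glutamate receptors, GABA-A receptors and voltage-gated ion channels have been studied as its targets in nerve cells. The hypothalamus sets hormone release, feeding, body temperature and the response to stress through small groups of peptide-releasing neurons.

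Each array gave 31099 probe sets, of which 57 were controls and 18625 were bright enough to be tested. Median deposited signals ran from 70.3 to 118 on the linalool arrays and from 67.0 to 127 on the others, so that the arrays were brought to a common distribution before the comparison. Values below are log2(normalized signal + 16), and a difference is linalool minus no linalool on that scale, averaged over unrestrained and restrained rats. A gene or probe set is called where its limma p, adjusted by the Benjamini-Hochberg method over all probe sets tested, is under 0.05. The bacterial spike-in BioC, which is added during sample preparation, stood apart on 3 arrays, at 884 to 1014 against 201 to 271 on the other 13. All of these 3 came from linalool rats (linalool rats 2 and 4, and rat 2 of restraint with linalool), and they are called BioC-high here; no label names a batch. The spike-in CreX did not separate them (8321 to 9332 on these 3 and 8214 to 9332 over all arrays). The ratio of 3' to 5' signal for beta-actin, a sign of RNA integrity, was 2.54 to 3.47 on the linalool arrays and 2.08 to 4.93 on the others, with control rat 1 the highest. For Gapdh it was 1.06 to 1.16 with linalool and 1.13 to 1.39 without, where 5 of 8 arrays lay above every linalool array; the part of this shift in the results below was not tested. Of 16 genes listed as marks of the hypothalamus, 10 were on the array and 4 were bright enough to be tested (Isl1, Six6, Lhx1 and Nkx2-1). In bulk tissue, fewer cells of a type and less RNA per cell cannot be told apart.

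Averaged over both conditions, 133 probe sets differed between rats with and without linalool, 111 higher and 22 lower. These are 0.714% of the probe sets tested, 0.596% in the higher and 0.118% in the lower direction. The differences were small. They ran from 0.21 to 0.96 in size on the log2 scale, the largest being a 1.94-fold fall of a probe set without a gene name, with a median of 0.45 among the higher and -0.37 among the lower. The median of all probe sets was -0.01. Before adjustment, 2754 probe sets had a p under 0.05, and 931 is the number that a p under 0.05 gives where nothing differs; the smallest adjusted p was 0.00615. The signals of the 8 linalool rats and the 8 others did not overlap for 30 of the 133, against 52 (0.279%) of all probe sets tested. For 115 of the 133, every linalool rat lay beyond the mean of the rats without linalool in its own restraint condition. The choice of the 133 by their difference favours this, and the share over all probe sets was not counted. At the threshold, Eprs1, a tRNA synthetase, was just inside (0.62, adjusted p = 0.0487), and a probe set without a gene name was just outside (-0.22, adjusted p = 0.0525).

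The number of calls moved far with many single rats and with the spike-in split. The medians of the called differences moved little with the spike-in split, and are not given here with single rats left out. With the BioC-high arrays as a block, single differences moved both ways, as for Emg1 (0.71 to 0.56) and Cutal (0.67 to 0.74). The number of calls was 357 without control rat 1. It was 133, 79 and 90 without rats 2, 3 and 4 of the controls. Without rats 1, 2, 3 or 4 of restraint it was 144, 75, 46 and 65. Leaving out linalool rats 1, 2, 3 or 4 gave 76, 64, 63 and 40, and leaving out rats 1, 2, 3 or 4 of restraint with linalool gave 63, 37, 75 and 72. With BioC-high arrays as a block, 1 probe set was called by limma, with 1898 at an unadjusted p under 0.05. On the 13 BioC-low arrays, which hold 5 linalool rats, limma called 0, with 1766 (9.48%) at an unadjusted p under 0.05. In those 13 arrays, all of the 133 kept their sign and had an unadjusted p under 0.05. Those arrays are part of the full set in which the 133 were chosen, which favours this. The medians of the 133 there were 0.45 for the higher and -0.34 for the lower, against 0.45 and -0.37 in all arrays. Their median standard error was 0.10 there and 0.08 in all arrays. Among the BioC-high arrays there is no rat without linalool, so no value within them exists. On the deposited values without normalization, 1 probe set was called (0 higher, 1 lower), all of the 133 kept their sign, and their medians were 0.40 and -0.39 with a median standard error of 0.14.

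**Figure D1:**
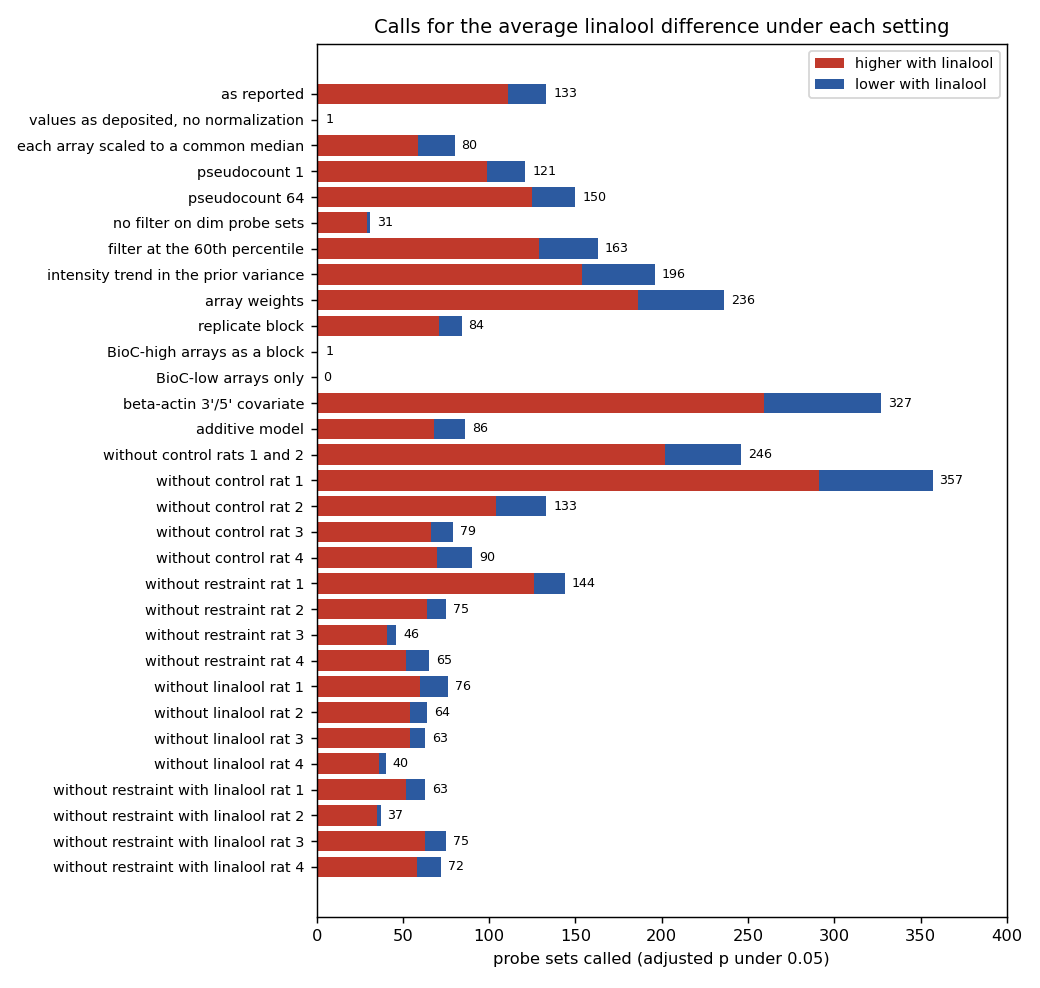
Number of probe sets called for the average linalool difference (horizontal axis; adjusted p under 0.05) as reported and under each alternative setting (rows), split into higher and lower with linalool. The bars run from 0 on the BioC-low arrays to 357 without control rat 1, against 133 as reported, and most calls are in the higher direction wherever more than 1 is made.

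The genes with the largest rises serve different functions. With each gene taken through its brightest probe set, 39 of 10309 genes (0.378%) were higher and 13 (0.126%) lower. Kif3a, a subunit of the kinesin motor that carries cargo along axons and cilia, was the largest named rise in which no linalool rat overlapped a rat without linalool. Its signal was 8.40, 8.00, 8.00 and 8.05 in the control rats and 8.24, 7.90, 7.99 and 7.77 in the restraint rats. It was 8.55, 8.54, 8.42 and 8.46 in the linalool rats and 8.47, 8.70, 8.66 and 8.53 with both. Control rat 1 stood above the other 3 control rats, yet below every linalool rat. The difference was 0.50 with a standard error of 0.08 (limma, adjusted p = 0.0122), 0.38 in unrestrained and 0.62 in restrained rats.

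Gabra2 encodes an alpha subunit of the GABA-A receptor, the chloride channel through which GABA inhibits neurons. Its signal was 8.82, 8.31, 9.10 and 9.15 in the control rats and 8.84, 8.05, 8.32 and 8.61 in the restraint rats. With linalool it was 9.38, 9.21, 9.24 and 9.23 in unrestrained and 9.16, 9.88, 9.04 and 9.57 in restrained rats. The unrestrained linalool rats lay above all control rats, and the rats with both treatments above all restraint rats. Pooled over restraint conditions the ranges overlapped, as the lowest value with both treatments fell below the highest control rats. The difference was 0.69 with a standard error of 0.15 (limma, adjusted p = 0.0437).

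Bmpr2, the type II receptor for bone morphogenetic proteins, had most of its difference in restrained rats. Control rats had 9.63, 9.07, 8.91 and 9.24, and linalool rats 9.24, 9.18, 9.16 and 9.38, so that the unrestrained groups overlapped and differed by 0.03. Restraint rats had 8.90, 8.52, 8.48 and 8.43, and rats with both had 9.72, 9.61, 9.71 and 9.42, with no overlap and a difference of 1.03. The average difference was 0.53 with a standard error of 0.10 (limma, adjusted p = 0.0234). The difference between the conditions, 1.01, did not pass the interaction test (limma, adjusted p = 0.294).

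Somatostatin (Sst), the peptide that restrains growth hormone release, was the single neuropeptide called. Its signal was 10.25, 10.46, 10.001 and 10.51 in control rats, 10.32, 10.37, 10.27 and 10.48 in restraint rats, 10.65, 10.92, 10.89 and 10.77 in linalool rats, and 10.64, 10.72, 10.43 and 10.60 with both. Unrestrained rats did not overlap, and in restrained rats only the lowest with linalool lay within the range without it. The difference was 0.37 with a standard error of 0.08 (limma, adjusted p = 0.0421), 0.50 in unrestrained and 0.24 in restrained rats.

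Other myosins and membrane proteins were among the named rises. Myo10, a myosin of filopodia, had 6.73, 7.20 and 7.86 (lowest, median and highest) without linalool and 7.59, 7.80 and 8.12 with it, a difference of 0.65 (limma, adjusted p = 0.0150). Control rat 1 alone made the ranges overlap. Myo5a, a myosin that carries vesicles, had 8.87, 9.13 and 9.93 without and 9.46, 9.73 and 9.84 with linalool (0.49, adjusted p = 0.0474). Pals2, a scaffold protein of cell membranes, had 9.79, 10.24 and 10.77 without and 10.54, 10.76 and 10.84 with it (0.46, adjusted p = 0.0210). In these 3 genes the linalool rats spanned a narrower range than the others. Tmem33, a membrane protein of the endoplasmic reticulum, rose by 0.49 (adjusted p = 0.0338).

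Other named rises were in genes that act on RNA, chromatin, transcription and signalling. Emg1, which modifies ribosomal RNA as ribosomes are made, had 6.12, 6.73 and 7.51 without linalool and 6.70, 7.62 and 7.98 with it, the largest named rise (0.71, standard error 0.15, limma adjusted p = 0.0437). Its ranges overlapped when restraint conditions were pooled, but not within them: the highest control rat, at 7.51, lay below every linalool rat, and the highest restraint rat, at 6.66, below every rat with both. Setd5, a chromatin-associated SET domain protein, had 7.84, 8.24 and 8.74 without and 8.49, 8.94 and 9.15 with linalool (0.62, adjusted p = 0.0210). Csrnp3, a nuclear transcriptional regulator, had 6.93, 7.54 and 8.23 without and 7.88, 8.04 and 8.33 with it (0.57, adjusted p = 0.0234). Ppp4c, the catalytic subunit of a serine/threonine phosphatase, had 6.03, 6.70 and 7.16 without and 6.94, 7.28 and 7.50 with it (0.62, adjusted p = 0.0482), and its difference was about the same in unrestrained (0.59) and restrained rats (0.65). Cxxc4, an inhibitor of Wnt signalling, rose by 0.50 (adjusted p = 0.0482). Cutal (0.67, adjusted p = 0.0126), C10h17orf75 (0.55, adjusted p = 0.0122) and Vof16 (0.54, adjusted p = 0.0384), whose roles are less well known, completed the 15 largest rises. Vof16 differed by 0.08 in unrestrained and by 1.01 in restrained rats (interaction, limma adjusted p = 0.390).

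Fewer named genes were called lower than higher, although at an unadjusted limma p under 0.05 more were lower (826, 8.01%) than higher (665, 6.45%). The largest named fall was smaller than the largest named rise, although both of the largest called differences were falls of unnamed probe sets (-0.96 and -0.88). Ptpru, a receptor tyrosine phosphatase, had the largest named fall, by 0.49 with a standard error of 0.10 (limma, adjusted p = 0.0338). Its signal was 7.57, 7.71 and 8.23 without linalool and 6.94, 7.29 and 7.53 with it, so that every linalool rat lay below every other rat. Uimc1, which brings a DNA repair complex to breaks, did not overlap either (8.58, 8.76 and 8.90 without, 8.32, 8.46 and 8.57 with; fell by 0.32, adjusted p = 0.0210). Napb, a brain SNAP that helps recycle the proteins of vesicle fusion, was bright and had the smallest difference of all calls. Its signal was 11.27, 11.38 and 11.44 without and 11.05, 11.16 and 11.21 with linalool, again without overlap (fell by 0.21, standard error 0.05, limma adjusted p = 0.0441).

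Several other genes that fell act on the cytoskeleton, on membrane traffic or on lipids. Myh9, a non-muscle myosin heavy chain, had 8.67, 8.86 and 9.00 without and 8.28, 8.53 and 8.68 with linalool (-0.33, adjusted p = 0.0279). Arhgef2, which activates the GTPase RhoA, had 8.39, 8.68 and 9.00 without and 7.81, 8.36 and 8.71 with it (-0.41, adjusted p = 0.0236). Rassf3, a Ras-association domain protein, had 7.38, 7.56 and 7.73 without and 6.92, 7.16 and 7.42 with it (-0.41, adjusted p = 0.0210). The pooled ranges of all 3 overlapped. Within each condition those of Myh9 and Arhgef2 did not, and for Rassf3 a single rat with both treatments, at 7.42, lay within the range of the restraint rats. Stard5 and Stard8, which share the lipid-binding START domain, fell by 0.41 and 0.40 (adjusted p = 0.0224 and 0.0275). Their differences were -0.53 and -0.51 in unrestrained and -0.29 and -0.30 in restrained rats, which did not pass the interaction test (limma, adjusted p = 0.714 and 0.762). Dgat2, an enzyme of triglyceride synthesis, fell by 0.32 (adjusted p = 0.0423), and Arfgap3, which acts on traffic at the Golgi, by 0.33 (adjusted p = 0.0463). Slc31a2, a copper transporter, fell by 0.33 (adjusted p = 0.0210), with -0.50 in restrained and -0.16 in unrestrained rats (interaction, adjusted p = 0.516). Rnf32 (-0.45, adjusted p = 0.0320) and the DNA repair nuclease gene Dclre1b (-0.35, adjusted p = 0.0437) completed the 13.

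**Figure D2:**
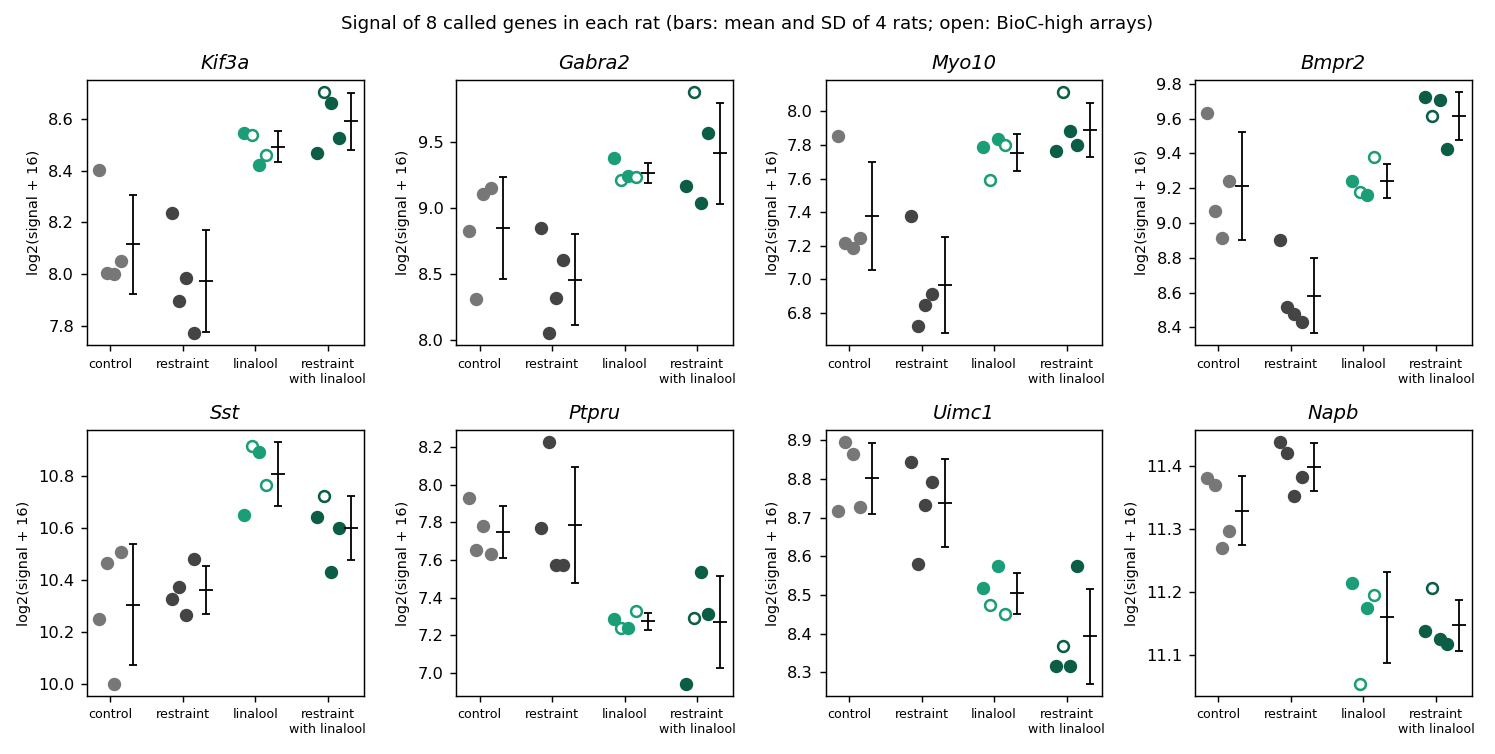
log2(normalized signal + 16) of 8 called genes in each rat (vertical axes) by group (horizontal axes), with the mean and SD of 4 rats; open circles are the 3 BioC-high arrays. Kif3a, Ptpru, Uimc1 and Napb have no overlap between rats with and without linalool, and the open circles lie within, above or below the filled linalool circles, depending on the gene.

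The promoters of Kif3a and Ptpru, the largest named rise and fall without overlap, are shown as examples of the windows searched for motifs in the called genes and in all genes tested. The sequences are the 250 bases before the transcription start in RefSeq (GRCr8), with the GC box GGGCGG and the cAMP response element TGACGTCA in capitals, searched on both strands. The Kif3a promoter is chr10:38226520-38226769 on the + strand, and that of Ptpru chr5:149308834-149309083 on the - strand.
Kif3a: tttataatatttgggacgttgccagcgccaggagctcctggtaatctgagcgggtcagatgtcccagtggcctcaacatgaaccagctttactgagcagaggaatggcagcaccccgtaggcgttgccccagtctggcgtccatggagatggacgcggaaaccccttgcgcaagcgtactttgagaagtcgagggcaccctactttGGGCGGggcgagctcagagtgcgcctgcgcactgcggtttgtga
Ptpru: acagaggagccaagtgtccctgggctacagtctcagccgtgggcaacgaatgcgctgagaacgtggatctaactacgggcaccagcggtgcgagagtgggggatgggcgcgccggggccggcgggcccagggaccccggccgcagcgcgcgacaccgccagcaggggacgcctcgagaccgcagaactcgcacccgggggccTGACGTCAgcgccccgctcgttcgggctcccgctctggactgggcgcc

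The Kif3a window had 1 GC box, no cAMP response element and a GC content of 58.4%. The Ptpru window had no GC box, 1 cAMP response element that starts at -48 from the transcription start, and a GC content of 72.4%. Over all called probe sets with a symbol, 75 of 84 genes with a rise and 16 of 18 with a fall had a promoter in the table, as did 8619 of the 10309 genes tested. The GC box was in 64% of promoters of the higher, 75% of the lower and 60.5% of all genes, and the cAMP response element in 4%, 6.25% and 3.02%. The ETS motif CCGGAAG was in 24% of the higher, 6.25% of the lower and 15.4% of all. Median GC content was 61.6%, 64.4% and 60.8%. These are counts of letters, and no difference between the sets was tested.

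Many calls rested on 1 of several probe sets of their gene. The 133 called probe sets included 30 without a gene symbol and 103 that named 102 genes, 84 higher and 18 lower. In 62 of the 102 genes another probe set was also tested, and in 0 of these genes were all probe sets called. Aff4, a scaffold of transcription elongation complexes, was the 1 gene with 2 called probe sets (0.59 and 0.61). Of the 108 other probe sets of these genes, 65 had the sign of the called one, 23 had that sign with an unadjusted p under 0.05 and 2 the opposite sign with one (of Pals2 and Pcnx4). The median difference of the 108 in the called direction was 0.03, against a median size of 0.44 for the called ones, and 66 of the 108 were brighter than the called probe set of their gene.

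Single genes show what this spread looks like, and those not named above were chosen after their values were seen. Gnas, the stimulatory G protein that couples receptors to cAMP, had a called probe set at a mean level of 7.0 that differed by 0.70. Its brightest, at 13.1, differed by -0.00, and another, at 11.2, by 0.25 (limma, adjusted p = 0.186). Ahi1, a protein of primary cilia, differed by 0.76 in the called and 0.03 in another probe set. Slc4a4, a sodium bicarbonate cotransporter, differed by 0.67 in the called one and by -0.10 in another. Kif3a had a second probe set at a similar level that differed by -0.10, and the 4 others of Pals2 ran from -0.16 to 0.01. In Setd5 the other probe sets had the same sign (0.33 and 0.28), as in Vof16 (0.33), Tmem33 (0.13), Pnma8b (0.44 against 0.59) and Dgat2 (-0.20 against -0.32). The positions of these probe sets in their transcripts were not analysed here.

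**Figure D3:**
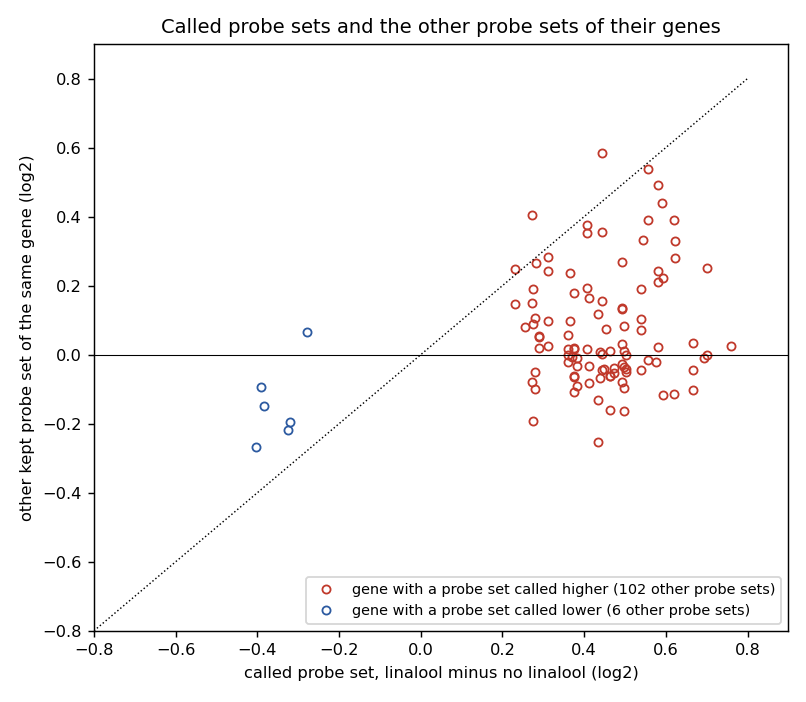
Difference of each called probe set (horizontal axis, log2) against that of every other tested probe set of the same gene (vertical axis, log2); the dotted line marks equal differences. The 102 other probe sets of genes with a rise gather around 0, with a median of 0.02, nearly all below the line; those of Plpp3 (0.59), Id4 (0.41) and Fkbp2 (0.25) lie above it. The 6 of genes with a fall lie above the line, with a median of -0.17.

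The called differences had the same sign in unrestrained and restrained rats for all of the 133, which the choice by their average favours. They were larger in restrained rats for 108 of the 133, for 94 of the 111 higher and 14 of the 22 lower. The median of the higher was 0.31 in unrestrained and 0.59 in restrained rats, and that of the lower -0.35 in both. Tested alone, linalool minus control gave 0 calls (limma, smallest adjusted p = 0.282, 1831 at an unadjusted p under 0.05). Restraint with linalool minus restraint gave 121 calls (0.65%), 111 higher and 10 lower, and 65 of these were also called on average. The interaction, which tests whether the difference with linalool depends on restraint, gave 0 calls by limma, with 1489 (7.99%) at an unadjusted p under 0.05. Its smallest adjusted p was 0.0565, for Inpp5b, a phosphatase of inositol phospholipids. Of the 133, 42 had an unadjusted interaction p under 0.05, and the median interaction was 0.27 among the higher and -0.04 among the lower.

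**Figure D4:**
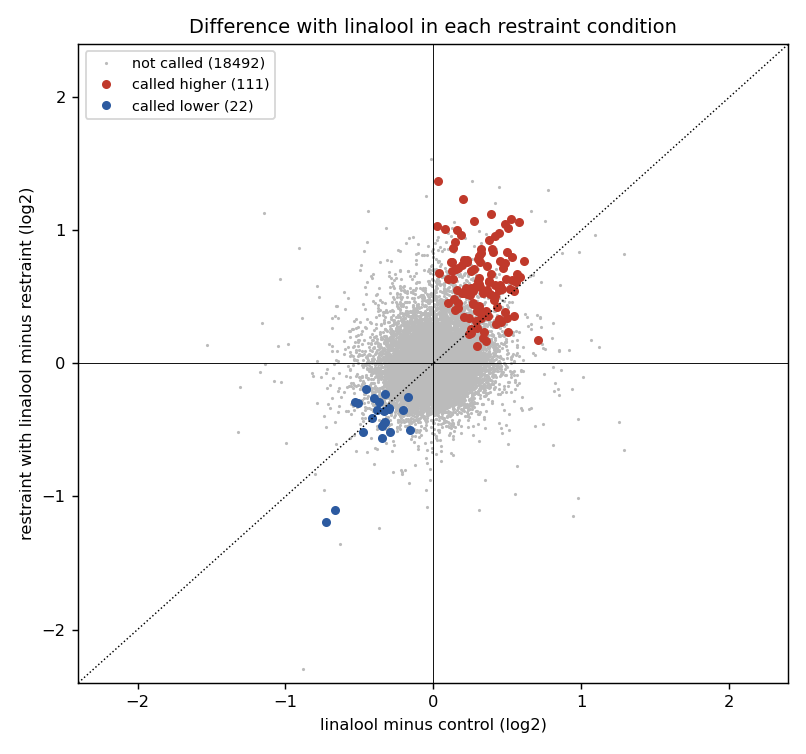
Difference with linalool in unrestrained (horizontal axis) and in restrained rats (vertical axis), in log2, for each probe set tested; the dotted line marks equal differences. Most of the 111 probe sets called higher lie above the line (94 of them), and the 22 called lower lie on both sides of it, with the 2 largest falls, of unnamed probe sets, well below it.

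Gene lists were counted through the brightest probe set of each gene. Genes that carry GABA and glutamate signals showed few calls. Among 18 tested genes of GABA synthesis, transport and reception, Gabra2 rose, 0 fell, and the median difference was -0.01, as over all named genes (-0.01), and 0.01 on the deposited values relative to all probe sets. Gad2, one of the enzymes that make GABA, had 8.73, 9.15 and 9.66 without and 9.22, 9.56 and 9.98 with linalool (0.40, limma adjusted p = 0.0680), with differences of 0.04 in unrestrained and 0.77 in restrained rats (interaction, adjusted p = 0.409). The other enzyme gene, Gad1, differed by -0.00 (adjusted p = 0.980). Of 25 glutamate receptor and transporter genes 0 were called. The lowest p was that of Slc1a3, the glial glutamate transporter (-0.19, adjusted p = 0.0887), and the NMDA receptor subunit Grin2a differed by 0.31 (adjusted p = 0.220).

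Ion channels and receptors listed as reported targets of linalool had 9 tested members, of which 0 were called, with a median of -0.01. Kcnq3, a potassium channel subunit, had the lowest p (0.25, adjusted p = 0.148), and the adenosine receptor Adora1 differed by -0.01 (adjusted p = 0.982). The lists of monoamine and acetylcholine genes (20 tested), potassium channels (24), cAMP and CREB signalling (30) and xenobiotic metabolism (17) also had 0 calls, with medians of -0.05, -0.04, -0.03 and -0.08 (-0.01, -0.01, -0.04 and -0.05 on the BioC-low arrays). In those 4 lists the smallest p belonged to Ddc, the decarboxylase of dopamine and serotonin synthesis (-0.14, adjusted p = 0.576), Kcna1, an axonal potassium channel (-0.33, adjusted p = 0.194), Crem, a factor that binds cAMP response elements (0.37, adjusted p = 0.143), and Aldh1a1, which makes retinoic acid (-0.31, adjusted p = 0.316). Ddc differed by 0.27 in unrestrained and by -0.54 in restrained rats. Of the 26 genes of BMP and TGF-beta signalling, Bmpr2 rose and 0 fell, with a median of -0.06 (-0.04 on the BioC-low arrays). Id4, a target of the pathway, had a called probe set (0.27) while its brightest differed by -0.08. The receptors Acvr1 (-0.23, adjusted p = 0.170) and Bmpr1a (-0.17, adjusted p = 0.247) lay on the other side of 0 from Bmpr2.

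Hypothalamic neuropeptide genes lay mostly above 0: 20 of 25 tested genes were positive, against 4677 of all 10309 named genes, with a median of 0.10 and a range from -0.15 (Vip) to 0.49 (Trh). Sst was the 1 call, and 4 of the 25 were higher at an unadjusted p under 0.05, against 6.45% of all named genes. Trh, the releasing hormone of the thyroid axis, had 8.14, 8.44 and 8.99 without and 8.60, 8.93 and 9.31 with linalool (limma adjusted p = 0.0680). It lay higher with linalool in both conditions, by 0.43 and 0.56, with overlapping ranges. Crh, which starts the hormonal stress response, differed by 0.21 (adjusted p = 0.441) and vasopressin (Avp) by -0.12 (adjusted p = 0.766). The median of the list was 0.21 in unrestrained and 0.07 in restrained rats, and 0.09 on the 13 BioC-low arrays. Markers of the hypothalamus moved beside it, with 4 of 4 above 0 and a median of 0.11 (0.22 in unrestrained and 0.00 in restrained rats), while markers of the thalamus were below 0 in 6 of 8 genes, with a median of -0.12 (-0.01 on the BioC-low arrays); their part in the neuropeptide values was not tested.

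Heat shock and chaperone genes had the highest median of the pathway lists, 0.15, with 0 of 23 called, 21 positive and 9 higher at an unadjusted p under 0.05, against 4677 of 10309 positive and 6.45% higher over all named genes. A second probe set of Hsp90ab1, a cytosolic Hsp90, was called (0.29, limma adjusted p = 0.0437), while its brightest differed by 0.05. The list median was 0.12 in unrestrained and 0.21 in restrained rats, and 0.11 on the BioC-low arrays. Hspa1a, the inducible heat shock protein of the Hsp70 family, had 7.26, 7.32, 7.34 and 7.39 in control rats, 7.94, 8.04, 8.11 and 8.33 in linalool rats, 11.79, 11.90, 8.59 and 10.79 in restraint rats, and 12.83, 12.63, 11.75 and 11.06 with both. Unrestrained rats did not overlap and differed by 0.78, whereas the restrained groups overlapped and spread over several log2 units. Its average difference was 1.04 and did not pass the test that all groups share (limma adjusted p = 0.218). Ahsa1, a co-chaperone of Hsp90, differed by 0.30 (adjusted p = 0.0653), and Hspb1 by 0.88 (adjusted p = 0.193).

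Immediate early genes, which neurons switch on within minutes of activity, had 16 of 21 members above 0, a median of 0.09 and 0 calls. Over all named genes, 4677 of 10309 were above 0. The median of the list was -0.06 in unrestrained and 0.23 in restrained rats. Fos differed by 0.03 in unrestrained rats. In restrained rats it was 9.68, 9.31, 8.42 and 9.31 without and 10.77, 10.53, 9.73 and 9.40 with linalool, a difference of 0.93, with 1 rat of the second group inside the range of the first (average 0.48, limma adjusted p = 0.288). Fosb differed by 0.35 (adjusted p = 0.136). Glucocorticoid-responsive genes (29 tested, 0 called) had a median of 0.02, which turned to -0.01 when arrays were scaled to a common median instead and to -0.02 on the BioC-low arrays, and Sgk1, a kinase induced by glucocorticoids, differed by -0.25 (adjusted p = 0.183).

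Energy metabolism and protein turnover showed small positive medians. Of 53 genes of oxidative phosphorylation, 41 were above 0 and 12 were higher at an unadjusted p under 0.05 (6.45% of all named genes were, and 4677 of 10309 were above 0), with 0 called and a median of 0.07. Ndufb10, a subunit of the first respiratory complex, did not overlap between rats with and without linalool and differed by 0.21 (limma adjusted p = 0.0651). Proteasome subunits had a median of 0.05 (26 of 31 above 0, 0 called), and cytosolic ribosomal proteins 0.02 (27 of 39, 0 called). RNA splicing genes had a median of -0.01 with 0 of 38 called, and Ddx6, an RNA helicase, differed by 0.45 (adjusted p = 0.0695). In the list of synaptic vesicle release Napb fell and 0 of 24 rose through their brightest probe sets, with a median of -0.02; a second probe set of Syt4, a synaptotagmin, was called (0.43 against 0.12 in its brightest). The clock genes (20 tested, 0 called) had a median of 0.02, which was -0.00 under median scaling. Nr1d2, a repressor of the clock, differed by -0.18 (adjusted p = 0.113).

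Inflammation, complement and interferon genes had a negative median of -0.10, with 9 of 26 above 0 (4677 of all 10309 named genes were) and 0 called. The median of the list was -0.20 in unrestrained and 0.06 in restrained rats. Complement C3 differed by -0.82 in unrestrained and -0.09 in restrained rats (average -0.45, limma adjusted p = 0.155).

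**Figure D5:**
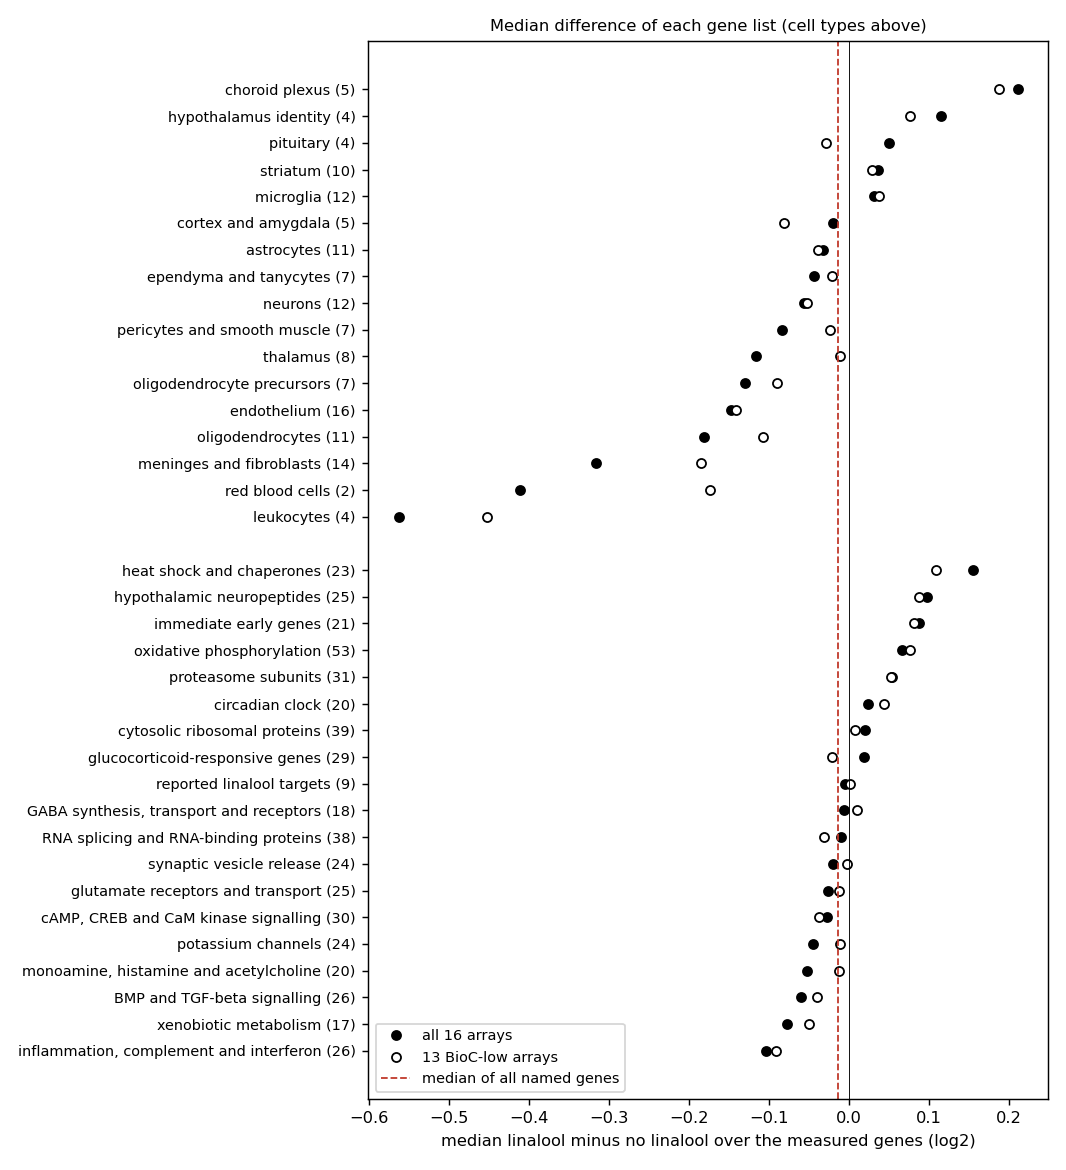
Median difference with linalool (horizontal axis, log2) over the tested genes of each list (rows, number of genes in brackets) in all 16 arrays and in the 13 BioC-low arrays; the dashed line is the median of all named genes, -0.01. Leukocyte (-0.56), red blood cell (-0.41) and meningeal lists (-0.32) in all arrays lie farthest below it and the choroid plexus list (0.21) farthest above.

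Markers of other cell types differed beside the genes above, and their part in these results was not tested. No marker was called in any of the 17 cell type and region lists. Of all 10309 named genes, 5632 were below 0. Meningeal and fibroblast markers were lower in 14 of 14 genes, 2 at an unadjusted p under 0.05 (8.01% of all named genes were lower at that p), with a median of -0.32, which was -0.18 on the BioC-low arrays and -0.15 with the BioC block. Their mean level over the genes, per rat, was 9.03 to 9.94 without and 8.41 to 9.96 with linalool, and Col3a1, a collagen of fibroblasts, differed by -0.57 (limma adjusted p = 0.335). Leukocyte markers were lower in 4 of 4 genes, 3 at an unadjusted limma p under 0.05. Their median was -0.56, with mean levels of 8.19 to 9.24 without and 7.77 to 8.96 with linalool. The MHC class II chain Cd74 had 8.41, 8.90 and 9.69 without and 7.72, 8.09 and 9.39 with linalool (-0.80, adjusted p = 0.126), and 1 linalool rat, rat 1 of restraint with linalool, stood well above the other 7. Outside these lists, RT1-DMa, another MHC class II chain, was called higher (0.36, limma adjusted p = 0.0279), as was Tapbp, also of antigen presentation (0.39).

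Oligodendrocyte markers were below 0 in 10 of 11 genes, 5 at an unadjusted p under 0.05, against 8.01% of all named genes, with a median of -0.18 (-0.11 on the BioC-low arrays) and mean levels of 11.34 to 11.86 without and 11.20 to 11.56 with linalool. Opalin, a myelin membrane protein, had 8.69, 9.94 and 10.71 without and 8.34, 9.35 and 9.90 with it (-0.55, adjusted p = 0.177), while Mbp, the main myelin basic protein, differed by 0.02. Endothelial markers were below 0 in 14 of 16 genes, 3 at an unadjusted limma p under 0.05 (median -0.15). Neuronal markers had a median of -0.06 over 12 genes, and astrocyte markers had -0.03 over 11, which was 0.01 under median scaling. Complement genes of microglia were above 0 (C1qb 0.39, adjusted p = 0.261), with a median of 0.03 over the 12 microglial genes. C1qb differed by 0.24 on the BioC-low arrays and by 0.20 with the BioC block, and its highest rat, at 10.24, was on a BioC-high array. Of 4 tested pituitary markers 2 were above 0 and 2 below, with a median of 0.05 and Lhb the highest (0.20). The lowest of them, the thyrotropin subunit Tshb, had 5.84, 10.68 and 11.21 without and 7.04, 8.46 and 9.90 with linalool (-1.59, standard error 0.61, adjusted p = 0.239). Control rat 3, at 5.84, was far below the other 3 control rats, the lowest of which was at 10.23, and the other groups lay between 7.04 and 11.21.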

How the data were processed

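Hypothalamic total RNA of 16 rats was hybridised to Affymetrix arrays, with 1 array for each rat, per the labels. The values are the authors' deposited signal intensity, made with MAS5 per the submitters' processing notes; the sources used here give neither its version nor its scaling. Intensity levels differed between arrays. The values were quantile-normalized, as was set beforehand for this comparison, which hides a shift shared by most transcripts. Then log2(value + 16) was taken, which understates changes of dim genes. Control probe sets (57) were left out, and probe sets with a mean at or above the 40th percentile (18625) were kept. Names were taken from the array platform's gene table: of 31042 probe sets, 20826 had 1 symbol, 436 several (not named) and 9780 none. Gene IDs set against a current RefSeq table changed 0 symbols, and 68 were not in it.

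A group-means model over the 4 groups was fitted with limma 3.58.1 in R 4.3.3 (two-sided; 12 residual and 3.97 prior degrees of freedom), with the average linalool difference and its interaction with restraint as contrasts. P-values were adjusted by Benjamini-Hochberg over all kept probe sets, and measure the spread between rats; the number of arrays limits the precision. On simulated data for the average difference, with 200 of 18625 probe sets changed, 77% of changes of 0.5 and 97% of changes of 1 (log2) were recovered, and 4.57% of calls were false. The simulated noise was independent between probe sets, with no restraint difference and no spike-in split, so these rates need not hold for the 133 calls.

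A gene was represented by its brightest kept probe set. Named genes were the 15 largest rises and falls among called genes, as many as 4 called genes from each list or else the member with the smallest p, and Gad1, Gad2, Crh, Avp, Fos, Sgk1, Adora1, Bmpr2 and Cyp2c members, none of which was bright enough. Genes outside this rule, such as Trh, Hspa1a, Hspb1, Grin2a, Acvr1, Bmpr1a, Mbp, RT1-DMa and Tapbp, were picked with their values known. Numbered predicted genes were not named. Members and lists were chosen with earlier results of these data known. Alternatives were the deposited values, median scaling, pseudocounts of 1 and 64, no filter or the 60th percentile, an intensity trend, array weights, the replicate number or the BioC split as a block, the BioC-low arrays alone, a beta-actin covariate, an additive model, and each rat left out in turn.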

Additional observations from a re-analysis of the deposited data

Results flagged for a closer look

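In 15 of 264 groups of 4 rats, 1 rat stood apart from the other 3 of its group (gap over range above Dixon's critical value), where chance gives about 1 in 20. Values are log2(normalized signal + 16), with the nearest rat of the group in brackets. Among the called genes, control rat 1 was high for Kif3a at 8.40 (8.05) and for Myo10 at 7.86 (7.25), both on the side of the linalool rats. Rat 1 of restraint with linalool was high for Cutal at 7.57 (7.07). Low values were those of restraint rat 3 for Tmem33 at 8.09 (8.32), and, in restraint with linalool, of rat 3 for Stard5 at 6.50 (6.63) and rat 2 for Slc31a2 at 6.24 (6.41).

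Among genes that were not called, Tshb in control rat 3 was the widest gap, at 5.84 (10.23). Restraint rat 1 had 10.06 (9.54) for Ddx6 and 9.89 (10.07) for Nr1d2. Restraint with linalool rat 1 had 12.49 (12.34) for Slc1a3, linalool rat 3 had 7.63 (7.77) for Isl1, restraint rat 4 had 9.21 (8.79) for Tac1, and control rat 2 had 9.48 (9.03) for Nrgn. Psmb3 was at 10.50 (10.27) in control rat 3 and at 10.21 (10.34) in rat 2 of restraint with linalool.

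The spike-in BioC, which enters no comparison, had a deposited signal of 927 in linalool rat 2, 884 in linalool rat 4 and 1014 in rat 2 of restraint with linalool, against at most 246 in the control rats. On these 3 arrays the mean of the called probe sets lay on both sides of the other linalool arrays: above their mean for 61 of the 111 higher and below it for 15 of the 22 lower. These counts did not take restraint into account, and the share of restrained rats differs between the BioC-high and the other linalool arrays.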

How the results depend on the processing

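The average linalool difference, with 133 calls as reported, gave 1 call on the deposited values, 80 with arrays scaled to a common median, 31 without a filter on dim probe sets, 236 with array weights, 1 with BioC-high arrays as a block, 0 on the BioC-low arrays, 327 with a beta-actin 3'/5' covariate, 86 in an additive model and 246 without control rats 1 and 2. Leaving out 1 rat gave from 37 to 357 calls, of which 36 to 133 were among the 133. The interaction, with 0 calls as reported, gave 1 call each on the deposited values, with a pseudocount of 64, with a filter at the 60th percentile, with an intensity trend, with the BioC block and without control rats 1 and 2, and 14 with the beta-actin covariate; leaving out 1 rat gave from 0 to 1. The causes were not tested. The labels do not say whether the replicate numbers pair the rats, and the main fit did not use them. Correlations of the deviations of same-numbered rats ran from -0.16 to 0.23 (median 0.00, 4 of 24 over 0.1), and 5 of 16 rats correlated best with their own number. With the replicate block, 84 probe sets were called for the average and 0 for the interaction. None of the 29 called named genes changed sign under the 30 alternatives in which it was tested, and 17 were called in at least as many of these as not. With 4 rats in a group, differences smaller than those called here may be missed, and signals near background understate any change.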
